A study of Rattus norvegicus with 9 samples.

Results

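Proliferation genes were followed in rat oligodendrocyte precursor cells (OPCs) that were differentiating in culture with or without bavisant, an antagonist of a histamine receptor. The genes were a fixed list of 40 symbols for the cell cycle and DNA replication, matched by name to the deposited tables. Of these, 38 were found among 32623 listed genes and all 38 passed the filter on low counts, with at least 103 reads per library, while Ccnb2 and E2f1 were not analysed here. They fell into 3 roles: 19 mitotic genes, 15 genes of DNA replication and 4 genes of G1 control. The rule takes genes by name and uses no measured value, although the list was drawn up with earlier results of these data known.

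The 9 libraries came from purified OPCs of wild-type (WT) rat brain, each kept for 5 days in differentiation medium. The 3 groups were basal (no compound), bavisant at 1 µM and bavisant at 10 µM, each with 3 libraries. The labels do not state strain, age, the number of animals or whether animals were pooled. The titles number the libraries P11, P13 and P14 in every group without saying what P marks, so the p-values measure the spread between these libraries, which may be technical.

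Differentiation of an OPC into a myelinating oligodendrocyte normally goes with leaving the cell cycle. In a dividing cell, D-type cyclins with their kinases start the path through G1, and CDK inhibitors of the Cip/Kip family hold it back. E-type cyclins, the MCM helicase and the nucleotide-supplying enzymes serve DNA synthesis in S phase. Cyclin B with Cdk1, the Aurora and Polo kinases, the spindle checkpoint and the anaphase-promoting complex act in mitosis, and their transcripts peak late in the cycle.

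The libraries held 23.9 to 43.1 M reads. The first principal component of log2(CPM + 1) held 64.7% of the variance (CPM, reads per M of the TMM-scaled library size). P11 stood apart in deviations from group means, which correlated across groups at -0.708 to -0.190 with those of P13 and P14. Between P13 and P14 these correlations were -0.0531 to 0.193. Same-number libraries deviated together from their group means, with all 9 correlations between 0.319 and 0.772, so the P number was also fitted as a block beside the dose. Markers fixed for OPCs (6 of 7 in the table) summed to between 3260 and 3910 CPM in every library, and 8 markers of mature oligodendrocytes summed to between 42900 and 71000 CPM. Microglial, astrocytic, neuronal and mural or fibroblast markers were also present, while Rgs5, Kcnj8, Cldn5, Tek and Slc17a6 lay under 1 CPM in all 9 libraries, and no marker was at 0 in all of them. In bulk RNA, fewer cells in a phase and less RNA per cell cannot be told apart.

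On the length-corrected TPM scale, the cell cycle genes spanned levels from a mean of 1.90 TPM for Gins2, a subunit of the GINS replication complex, to 298 TPM for Cdkn1c, a CDK inhibitor. Pcna, the sliding clamp of the replicative polymerases, had a mean of 194 TPM, above all other replication genes. Cdkn1b (127 TPM), Ccnd2 (118 TPM) and Ccnd1 (104 TPM) were also high. Among the mitotic genes, mean TPM ran from 6.50 for the centromere motor gene Cenpe to 61.2 for Cdk1. Genes of all 3 roles were thus measured after 5 days in differentiation medium.

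The mitotic genes differed more between P numbers than between doses. Summed over the 19 genes, the basal libraries P11, P13 and P14 held 496, 625 and 876 CPM. At 1 µM the same numbers held 447, 810 and 847 CPM, and at 10 µM 379, 888 and 975 CPM. All 3 P11 libraries lay below all 6 others, and the P11 sum was 0.661 times the mean of P13 and P14 at basal, 0.540 times at 1 µM and 0.407 times at 10 µM. The group means overlapped widely, at 666 ± 193 CPM for basal, 701 ± 221 at 1 µM and 747 ± 322 at 10 µM (SD, n = 3 each).

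**Figure D1:**
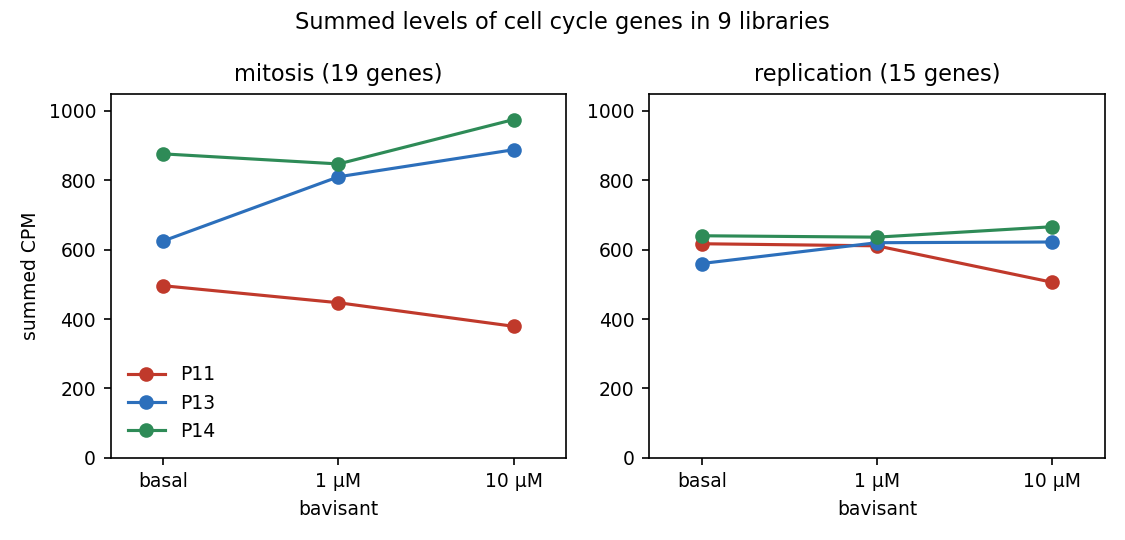
Summed CPM of 19 mitotic genes (left) and 15 replication genes (right) in each of 9 libraries by bavisant group, with lines joining the libraries of 1 P number. The mitotic sums of P11 (379 to 496 CPM) lie under those of P13 and P14 (625 to 975 CPM), while the replication sums lie between 506 and 666 CPM.

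Each mitotic gene was lower in P11. In a fit with group and P number as terms (edgeR's quasi-likelihood test with Benjamini-Hochberg adjustment over all 15321 genes tested), 25 of the 38 cell cycle genes passed an adjusted p of 0.05 between P11 and the mean of P13 and P14, 23 lower and 2 higher, against 50.6% of all genes (25.4% lower and 25.2% higher). This split was taken with the separation of P11 already known. By the labels the P11 libraries differed from each other in dose only and are not independent repeats. These p-values therefore measure the spread left within the P numbers and not the spread between P numbers. All 19 mitotic genes passed as lower, with log2 fold changes from -1.32 to -0.52 and a median of -1.03, where the median over all genes tested was -0.0014. For 18 of the 19 the P11 libraries did not overlap the others in CPM, where 37.9% of all genes did not overlap (19.4% lower and 18.5% higher). Fitted without each library in turn, the number of cell cycle genes past the threshold ran from 22 to 26, beside 6053 to 8055 genes in all. Every such run still held P11 libraries, so calls kept in these runs do not show whether a difference depends on that P number.

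Cdc20, an activator of the anaphase-promoting complex, had 20.6, 32.7 and 44.4 CPM in basal P11, P13 and P14. At 1 µM it had 20.5, 42.2 and 43.0 CPM, and at 10 µM 20.2, 53.4 and 51.3 CPM. The 3 P11 values were nearly equal, and every other library held at least 32.7 CPM. The fitted log2 difference was -1.11 ± 0.11 (SE; edgeR, adjusted p = 7.74e-05). Birc5, the survivin subunit of the chromosomal passenger complex, differed most among the mitotic genes, at -1.32 ± 0.15 (adjusted p = 1.46e-04), with 5.59 to 6.46 CPM in P11 and 11.7 to 18.5 CPM elsewhere.

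Checkpoint and kinase genes behaved alike. Bub1, a spindle checkpoint kinase, was at -1.31 ± 0.15 (edgeR, adjusted p = 1.78e-04), with 9.82 to 13.1 CPM in P11 and 20.7 to 36.1 CPM in the other 6 libraries. Ccnb1, the B-type cyclin, was at -1.26 ± 0.16, with 10.7 to 14.5 CPM against 22.0 to 36.3 CPM. Aurka, a centrosomal Aurora kinase, had a smaller difference (-0.73 ± 0.105) but also no overlap, with 10.6 to 12.6 CPM in P11 and 16.1 to 22.7 CPM elsewhere. The other mitotic genes, among them the spindle genes Tpx2, Nusap1 and Prc1 and the kinases Plk1, Ttk and Aurkb, lay between -1.21 and -0.815 apart from Mki67. Top2a, the topoisomerase that untangles sister chromatids, was at -0.85 ± 0.13.

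The remaining cyclin, checkpoint and ubiquitin genes also separated without overlap. Ccna2, the A-type cyclin of S and G2 phase, had 13.4 to 17.2 CPM in P11 and 24.0 to 42.4 CPM in the other 6 libraries. Bub1b, a spindle checkpoint gene, had 12.4 to 17.0 CPM against 21.8 to 32.7 CPM. Ube2c, which encodes a ubiquitin-conjugating enzyme of the anaphase-promoting complex, had 8.38 to 9.16 CPM against 14.4 to 24.7 CPM. Cenpf, a kinetochore gene, had 23.3 to 32.2 CPM against 43.5 to 65.0 CPM. In all 4 genes the lowest of the 9 libraries was 10 µM P11.

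Mki67, the common proliferation marker, differed least. It had 84.3, 76.4 and 103 CPM in the basal libraries P11, P13 and P14, 64.6, 102 and 103 CPM at 1 µM, and 53.9, 88.3 and 104 CPM at 10 µM. The basal P11 library thus lay above basal P13, so the groups overlapped. The fitted log2 difference was -0.52 ± 0.13 (edgeR, adjusted p = 0.0108), and the call was lost without the 1 µM P11 library (-0.45, adjusted p = 0.0703) or the 10 µM P11 library (-0.37, adjusted p = 0.0553). No other mitotic gene lost its call when any 1 of the 9 libraries was left out, although P11 libraries stayed in every such run.

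Promoters of 2 of the mitotic genes are shown because most of this group held a short motif that 1 replication gene held. The sequences are from RefSeq (build GRCr8), 250 bases before to 50 bases after the gene start, read in the direction of transcription. Capitals mark the CHR motif TTTGAA (cell cycle homology region, a target of late cell cycle repressor and activator complexes) and the CCAAT box, each searched on both strands. Cdc20 lies at chr5:137255750-137256049 on the minus strand and Birc5 at chr10:103571896-103572195 on the plus strand.
Cdc20: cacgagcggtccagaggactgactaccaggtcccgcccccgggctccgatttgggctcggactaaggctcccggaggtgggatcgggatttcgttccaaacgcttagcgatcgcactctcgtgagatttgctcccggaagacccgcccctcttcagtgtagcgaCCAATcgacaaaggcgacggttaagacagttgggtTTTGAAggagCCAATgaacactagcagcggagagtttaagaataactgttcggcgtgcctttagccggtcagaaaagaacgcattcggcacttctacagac
Birc5: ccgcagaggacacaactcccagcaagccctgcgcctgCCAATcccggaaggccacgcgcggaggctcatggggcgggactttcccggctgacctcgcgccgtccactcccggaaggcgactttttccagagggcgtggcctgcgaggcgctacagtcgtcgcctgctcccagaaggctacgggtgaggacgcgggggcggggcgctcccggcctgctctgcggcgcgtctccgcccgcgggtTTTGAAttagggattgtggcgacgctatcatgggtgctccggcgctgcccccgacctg
In Cdc20 the CHR begins 51 bases before the start, between CCAAT boxes at 86 and 41 bases, and in Birc5 it begins 8 bases before the start with a CCAAT box at 213 bases. Both genes were picked for display after their values were seen.

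Of the 40 listed genes, 28 matched a promoter entry. Among 16 mitotic genes matched (the unmeasured Ccnb2 included), 12 (75.0%) held a CHR and 13 (81.2%) a CCAAT box, and 11 (68.8%) held both. Of all 27457 promoters of the same length, 18.1% held a CHR, 37.7% a CCAAT box and 7.25% both. Among the measured mitotic genes, the median log2 P11 difference was -0.93 for the 11 with a CHR (range -1.32 to -0.521). For the 4 without one it was -1.18 (range -1.31 to -0.732). Whether the motif had a part in the difference was not tested. A match is a description of letters and not a measured binding site.

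In the fit over all 3 doses, the 15 replication genes did not share the P11 difference as a set. By dose, P11 was the lowest number in 2 of the 15 genes at basal, 6 at 1 µM and 13 at 10 µM. Their summed CPM were 617, 560 and 640 in basal P11, P13 and P14, 611, 620 and 636 at 1 µM, and 506, 622 and 666 at 10 µM. P11 was inside the range of the other numbers at basal, just below it at 1 µM and clearly lowest at 10 µM. Of the 15 genes 3 passed as lower in P11, 1 passed as higher, and 11 did not pass. Among all genes 25.4% passed as lower and 25.2% as higher. Their median log2 difference was -0.051, which turned to 0.096 without the 10 µM P11 library and to 0.0073 without the 10 µM P14 library. The ratio of the mitotic to the replication sum was 0.732 to 0.804 in the P11 libraries and 1.12 to 1.46 in the other 6.

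The MCM genes, which encode the 6 subunits of the replicative helicase, were split. Mcm7 was lower in P11 at -0.39 ± 0.075 (edgeR, adjusted p = 0.00299), with 58.7, 55.9 and 49.3 CPM at the 3 doses against 65.0 to 77.2 CPM elsewhere, and it kept its call whichever library was left out. For Mcm2, Mcm3, Mcm4, Mcm5 and Mcm6 the differences were between -0.15 and 0.15 and did not pass, although leaving out the 10 µM P11 library made Mcm2 pass as higher (0.27, adjusted p = 0.00832). Mcm6 had 64.0, 65.0 and 49.2 CPM in P11 at basal, 1 µM and 10 µM, where the other libraries had 50.9 to 66.7 CPM. Mcm5 showed the same form, with 35.7, 34.5 and 27.2 CPM in P11 and 28.7 to 40.6 CPM elsewhere.

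Promoters of Mcm5 and Mcm6 are given for contrast with those of the mitotic genes. Capitals mark the CCAAT box (written ATTGG where it lies on the other strand) and 4 spellings of the E2F site, TTTCCCGC, TTTCGCGC, TTTGCCGC and TTTGGCGC, each on both strands. E2F factors are the classical activators of replication genes at the entry into S phase. Mcm5 lies at chr19:13488563-13488862 on the plus strand and Mcm6 at chr13:42404303-42404602 on the minus strand.
Mcm5: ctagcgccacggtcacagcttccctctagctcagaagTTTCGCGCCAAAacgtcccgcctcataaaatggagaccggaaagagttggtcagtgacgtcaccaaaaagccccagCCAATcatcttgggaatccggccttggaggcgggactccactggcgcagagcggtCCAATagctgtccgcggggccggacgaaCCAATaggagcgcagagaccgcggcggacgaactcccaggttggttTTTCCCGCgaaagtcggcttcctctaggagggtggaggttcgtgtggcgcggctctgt
Mcm6: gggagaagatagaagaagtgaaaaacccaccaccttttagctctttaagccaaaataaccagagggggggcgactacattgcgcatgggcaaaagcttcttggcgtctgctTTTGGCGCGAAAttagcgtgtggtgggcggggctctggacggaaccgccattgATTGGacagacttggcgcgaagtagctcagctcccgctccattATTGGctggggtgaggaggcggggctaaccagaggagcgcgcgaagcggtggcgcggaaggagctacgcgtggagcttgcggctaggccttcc
Mcm5 holds E2F letters at 213 and 209 bases before the start, which overlap on opposite strands, and again at 8 bases. Mcm6 holds an overlapping pair at 139 and 135 bases. Of 11 replication genes with a promoter entry 7 (63.6%) held an E2F spelling, against 2.25% of all promoters and 1 of the 16 mitotic genes, while 1 of the 11 (Mcm2) held a CHR. The median P11 difference was -0.076 for the 7 with the E2F letters and -0.015 for the 4 without.

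Nucleotide supply was uneven. Rrm1 and Rrm2 encode the large and small subunits of ribonucleotide reductase. Rrm2 was lower in P11 (-0.52 ± 0.16; edgeR, adjusted p = 0.0272), mainly through 1 library: P11 had 18.9, 18.3 and 11.6 CPM at basal, 1 µM and 10 µM, where the others had 17.8 to 25.3 CPM. Its call was lost without any of 5 libraries, which were 10 µM P11 (-0.26, adjusted p = 0.0972), 10 µM P14 (-0.48, 0.0588), basal P14 (-0.51, 0.0637), 1 µM P11 (-0.62, 0.0524) and 1 µM P13 (-0.50, 0.0551). Rrm1 was at -0.22 ± 0.060 (adjusted p = 0.0158) and lost its call without the 10 µM P11 library (-0.12, adjusted p = 0.0701). Tyms, thymidylate synthase, was at -0.051 ± 0.086 and did not pass.

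Origin licensing genes and E-type cyclins were close to level. Cdc6 and Cdt1, the loaders of the MCM helicase, differed by 0.11 ± 0.15 and -0.097 ± 0.15, and Gins2 by 0.092 ± 0.13, none of which passed. Ccne1 was higher in P11 at 0.26 ± 0.070 (edgeR, adjusted p = 0.0139), with 18.2, 18.4 and 16.6 CPM against 13.4 to 16.0 CPM, but its call was lost without the basal P11 (0.24, adjusted p = 0.0712) or the 1 µM P11 library (0.22, adjusted p = 0.0935). Ccne2 was at -0.036 ± 0.083. Pcna had 96.4 to 105 CPM in P11 and 98.7 to 116 CPM elsewhere (-0.12 ± 0.056, adjusted p = 0.106), and passed only without the basal P13 library (-0.16, adjusted p = 0.0326).

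**Figure D2:**
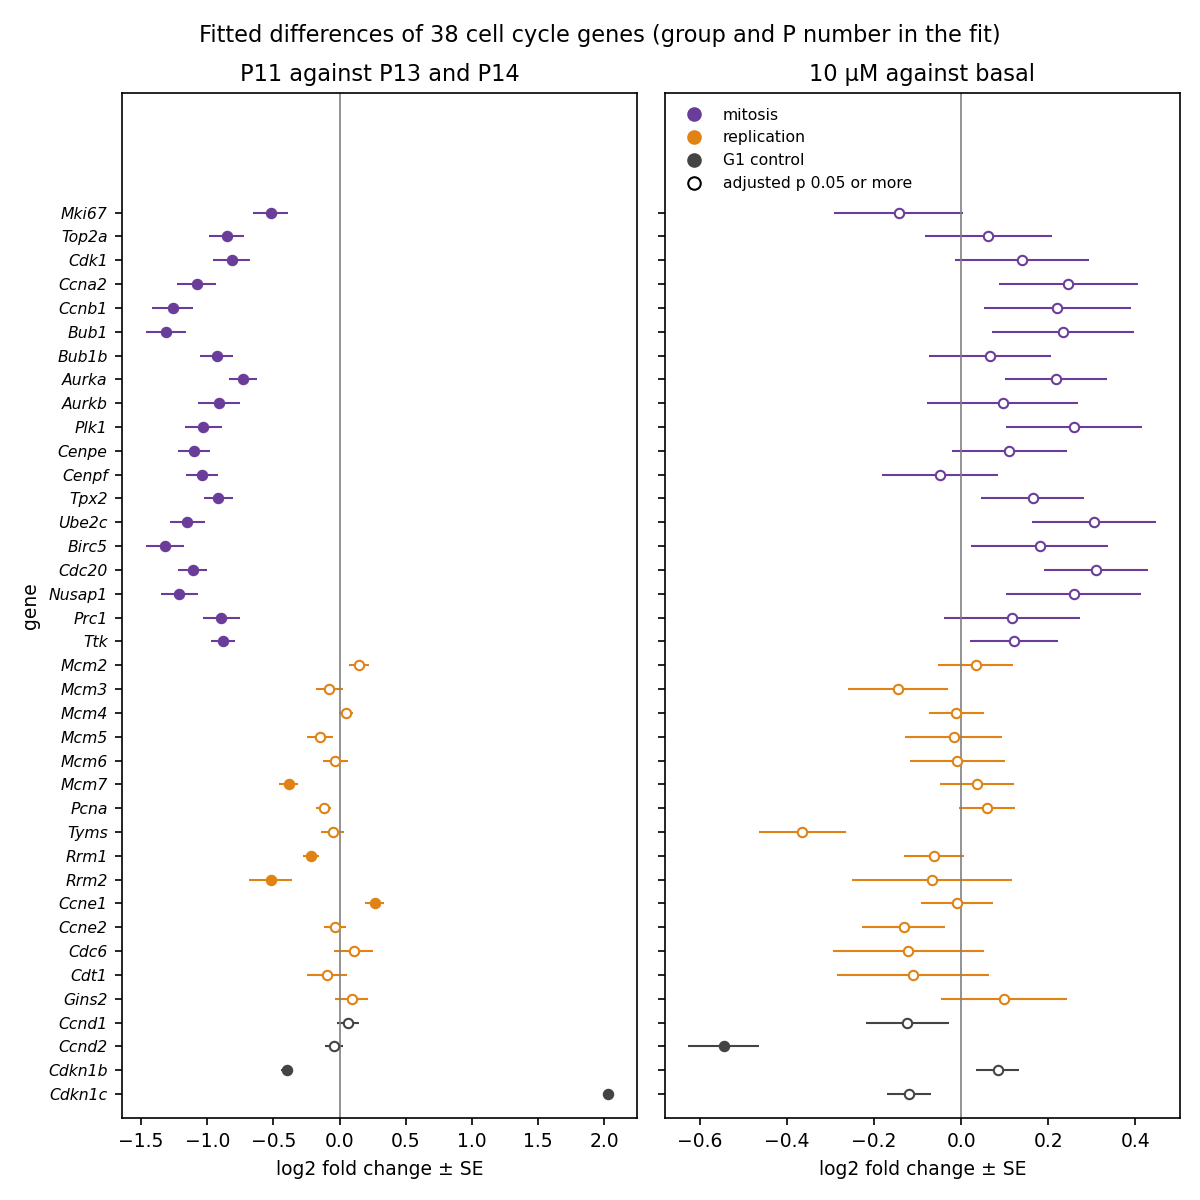
Fitted log2 fold change with its SE for 38 cell cycle genes, for P11 against the mean of P13 and P14 (left) and for 10 µM bavisant against basal (right), with filled points where the adjusted p is under 0.05. All 19 mitotic genes lie left of zero in the P11 panel, and Ccnd2 is the filled point in the dose panel. The x axes differ in range.

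Among the G1 control genes, Cdkn1c carried the largest difference of the list and the smallest p of all 15321 genes in this contrast. This CDK inhibitor had 522, 145 and 99.5 CPM in basal P11, P13 and P14, 522, 167 and 113 CPM at 1 µM, and 467, 133 and 95.3 CPM at 10 µM. The lowest P11 value, 467 CPM, lay far above the highest value elsewhere, 167 CPM. The fitted log2 difference was 2.03 ± 0.042 (edgeR, adjusted p = 2.92e-07). Cdkn1b, which encodes the related inhibitor Kip1, went the other way, with 74.6 to 83.1 CPM in P11 and 89.5 to 125 CPM elsewhere (-0.40 ± 0.043, adjusted p = 1.42e-04). Both kept their calls whichever library was left out. The D-type cyclins did not pass, at 0.065 ± 0.082 for Ccnd1 and -0.043 ± 0.070 for Ccnd2.

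A wider list of 190 further cell cycle genes, none of them on the list of 40, was counted in the same fit. For comparison, 25.4% of all genes passed as lower in P11 and 25.2% as higher. Of its 80 mitotic genes 74 were lower in P11 and 1 was higher (median -0.85). Of 78 replication and repair genes 28 were lower and 4 higher (median -0.18), and of 32 G1 control genes 13 were lower and 3 higher (median -0.12). Cenpa, the centromeric histone, was the mitotic gene with the smallest p, at -1.71 ± 0.14 (edgeR, adjusted p = 2.54e-05). The growth-promoting transcription factors Mycn (-1.60 ± 0.082) and Myc (-0.89 ± 0.065) and the CDK inhibitor Cdkn2b (-1.35 ± 0.086) were lower in P11, as was the antiproliferative gene Btg1 (-0.71 ± 0.062), and the D-type cyclin Ccnd3 was higher (0.54 ± 0.048).

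Myc had 36.9, 40.2 and 44.6 CPM in P11 at basal, 1 µM and 10 µM, and 67.3 to 91.2 CPM in the other 6 libraries. Mycn had 3.38 to 4.44 CPM in P11 and 9.63 to 13.6 CPM elsewhere. For both genes the P11 libraries lay well under all others at every dose. The wider mitotic list held a CHR in 46 of 72 promoters matched (63.9%), and its median P11 difference was -0.86 with one and -0.80 without. Among the wider replication genes the median was -0.395 for the 10 with a CHR and -0.115 for the 54 without. The part of the motif in these differences was not tested.

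Cell type markers also differed between P11 and the other numbers in the same fit, where 25.4% of all genes were lower and 25.2% higher. The OPC markers Pdgfra (-1.29), Cspg4 (-0.66) and Ptprz1 (-0.27) were lower in P11, and Gpr17 (0.57), a gene of committed precursors, Vcan (0.63) and Tnr (0.65) were higher. Of 8 mature oligodendrocyte markers 7 were higher, from 0.19 for Cldn11 to 2.35 for Mobp, while Mbp did not pass (-0.079). Of 12 microglial markers 9 were lower (median -0.38), and the microglial sum was 594 to 682 CPM in P11 and 587 to 857 CPM elsewhere. Mural and fibroblast markers were higher in 5 of 7 (median 1.07), with sums of 1140 to 1540 CPM in P11 and 172 to 772 CPM elsewhere, and endothelial markers were higher in 4 of 5 and lower in 1. Of 9 neuronal markers 6 were lower and 1 higher, and of 9 astrocytic markers 3 were lower and 2 higher. The part of any of these cell types in the cell cycle differences was not tested.

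The dose comparison asked whether bavisant changed these genes. At 10 µM against basal, the fit without the P number called 0 of the 38 genes and 0 of 15321 genes in all (0%; edgeR, 808 genes and 2 cell cycle genes at an unadjusted p under 0.05, smallest adjusted p = 0.462). With the P number as a block it called 1 cell cycle gene, Ccnd2, as lower, against 607 genes or 3.96% of all (1.32% higher and 2.64% lower). A count of 1 in 38 is near the share of all genes and does not set the list apart. DESeq2 without the block also called 1 cell cycle gene, again Ccnd2 as lower, among 64 genes. At 1 µM against basal 0 cell cycle genes passed with or without the block, against 0% of all genes, with 582 genes and 1 cell cycle gene at an unadjusted p under 0.05 in the blocked edgeR fit. DESeq2 also called 0 cell cycle genes at 1 µM, against 5 genes in all without the block and 8 with it.

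Ccnd2, the cyclin D2 gene (ENSRNOG00000057710), fell at 10 µM in the blocked fit. It had 96.8, 104 and 100 CPM in basal P11, P13 and P14, and 95.5, 96.0 and 102 CPM at 1 µM. At 10 µM it had 68.8, 59.0 and 79.5 CPM, below each of the 6 other libraries. The mean went from 100 ± 3.55 CPM at basal and 97.7 ± 3.42 at 1 µM to 69.1 ± 10.2 at 10 µM (SD, n = 3). Within P11, P13 and P14 the log2 ratio of 10 µM to basal was -0.49, -0.82 and -0.34.

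The fitted log2 fold change of Ccnd2 was -0.54 ± 0.081 at 10 µM against basal (SE; edgeR with the block, adjusted p = 0.0177) and -0.51 ± 0.081 against 1 µM (adjusted p = 0.0223). These comparisons share the 10 µM libraries. At 1 µM against basal it was -0.041 ± 0.080 and did not pass. The call against basal was lost without basal P11 (adjusted p = 0.0716), basal P13 (0.0910) or basal P14 (0.0533), with log2 fold changes between -0.61 and -0.46 in these runs. In edgeR it was also lost without the block (adjusted p = 0.588) and with the 1 µM libraries out of the fit (adjusted p = 0.0712). The same held without all P11 libraries (-0.56, adjusted p = 0.0716) and without all P14 libraries (-0.65, adjusted p = 0.137). DESeq2 without the block kept the call against basal (-0.54, adjusted p = 0.00240), and limma on log2(TPM + 1) without the block did not (adjusted p = 0.508). Against 1 µM the call was lost without the P11 (adjusted p = 0.0710), P13 (0.0840) or P14 library (0.0869) at 1 µM or the P14 library at 10 µM (0.0594). In edgeR it was also lost there without the block (adjusted p = 0.867), with the basal libraries out of the fit (0.0697), and without all P11 (0.0632), all P13 (0.0535) or all P14 libraries (0.176). DESeq2 without the block kept the call against 1 µM too (adjusted p = 0.0109), and limma on log2(TPM + 1) without the block did not (adjusted p = 0.703).

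The other G1 control genes differed less between doses. Cdkn1c was lower at 10 µM than at 1 µM (-0.25 ± 0.051; edgeR with the block, adjusted p = 0.0373). It was the second of 2 cell cycle genes called in that comparison, both lower, against 4.30% of all genes (200 genes higher and 459 lower). A count of 2 in 38 is near that share and does not set the list apart. Without the block 0 cell cycle genes passed there in edgeR, against 0% of all genes, with 717 genes and 1 cell cycle gene at an unadjusted p under 0.05. DESeq2 without the block called 1 cell cycle gene, Ccnd2, among 66 genes in all. The call of Cdkn1c remained in 1 of 9 runs that each left out 1 library, the run without basal P11 (adjusted p = 0.0495), and the others gave adjusted p values of 0.0590 to 0.161. It was also lost with the basal libraries out of the fit (adjusted p = 0.103) and without all P11 (0.0673), all P13 (0.151) or all P14 libraries (0.276). Against basal it was -0.12 ± 0.051 (adjusted p = 0.216). Ccnd1 had 239, 216 and 203 CPM at basal and 198, 202 and 201 CPM at 10 µM, which did not overlap but did not pass (-0.12 ± 0.095, adjusted p = 0.471), and Cdkn1b was at 0.084 ± 0.049 (adjusted p = 0.346).

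**Figure D3:**
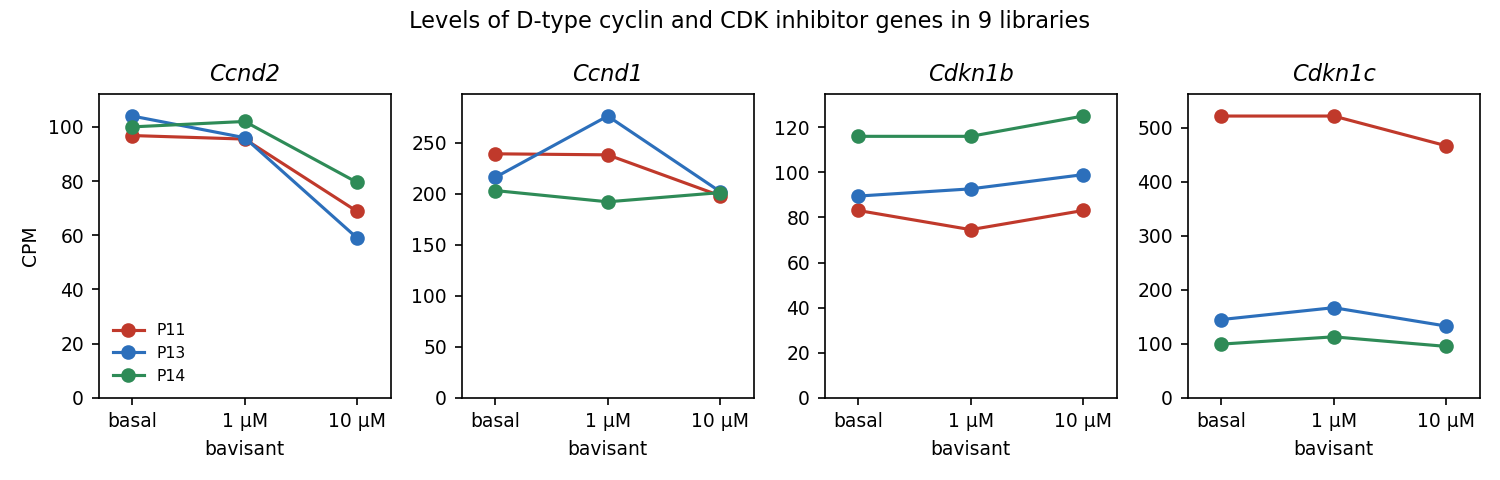
CPM of Ccnd2, Ccnd1, Cdkn1b and Cdkn1c in 9 libraries by bavisant group, with lines joining the libraries of 1 P number. Ccnd2 is lowest in the 3 libraries at 10 µM (59.0 to 79.5 CPM), and Cdkn1c is highest in the 3 P11 libraries (467 to 522 CPM).

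Replication genes at 10 µM gave no call. Tyms came nearest, with 19.3, 16.9 and 18.2 CPM in basal P11, P13 and P14 and 12.8, 12.7 and 16.8 CPM at 10 µM. Its fitted log2 fold change was -0.36 ± 0.10 (edgeR with the block, adjusted p = 0.0824), and its ratio was below zero on the log2 scale within each of the 3 P numbers (-0.59, -0.41 and -0.11). Ccnd2, Ccnd1 and Tyms were the 3 cell cycle genes whose 10 µM and basal libraries did not overlap, all lower, where 9.33% of all genes did not overlap (4.72% higher and 4.61% lower). The median over the 15 replication genes was -0.017 with the block, beside -0.011 over all genes, and it was 0.15 without the 3 P11 libraries.

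Mitotic genes at 10 µM had a positive median, but no gene passed. In the blocked fit 17 of 19 were above zero, with a median log2 fold change of 0.16 and adjusted p values from 0.174 for Cdc20 (0.31 ± 0.12) to 0.858. Mki67 was below zero at -0.14 ± 0.15 (edgeR with the block, adjusted p = 0.601). The median was 0.38 without all P11 libraries, 0.15 without all P14 libraries and -0.033 without all P13 libraries. At 1 µM against basal the median was 0.078, and at 10 µM against 1 µM 0.092.

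Within the P numbers the mitotic genes moved in opposite directions at 10 µM. In P11 all 19 genes were lower than basal, with a median log2 ratio of -0.28 and a range of -0.65 to -0.026. In P13 all 19 were higher, with a median of 0.58 and a range of 0.19 to 0.78, and in P14 18 of 19 were higher, with a median of 0.19 and Birc5 at -0.050. Over all genes the medians were -0.0056, -0.029 and 0.0019, with 48.9%, 46.1% and 50.6% of genes higher. Of the 19 mitotic genes 0 had the same direction in all 3 numbers, where 44.9% of all genes did (20.6% higher and 24.3% lower), and the 4 other cell cycle genes that did, Tyms, Ccnd1, Ccnd2 and Cdkn1c, were lower. With 1 library per dose and number, this difference between the numbers could not be tested.

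Single genes show the same split. Plk1, the Polo kinase of mitotic entry, went from 14.8 to 12.6 CPM in P11, from 19.9 to 33.4 CPM in P13 and from 29.5 to 33.8 CPM in P14 between basal and 10 µM. Top2a went from 87.4 to 65.2 CPM, from 99.0 to 136 CPM and from 148 to 164 CPM. Aurkb, the passenger complex kinase, went from 15.9 to 10.7 CPM, from 19.7 to 28.8 CPM and from 27.1 to 31.0 CPM. Each was lower than basal in P11, where its basal level was the lowest of the 3, and higher in P13 and P14.

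The basal libraries themselves differed in these genes. P11 was the lowest of the 3 basal libraries in 18 of 19 mitotic genes and P14 the highest in all 19, so the ratios within P13 are set against an intermediate basal level. At 1 µM the mitotic medians against basal were -0.069 in P11, 0.36 in P13 and -0.046 in P14. At 10 µM against 1 µM they were -0.24 with all 19 lower in P11, 0.22 with 16 higher in P13 and 0.20 with all 19 higher in P14. In P13 all 19 genes already lay above basal at 1 µM.

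**Figure D4:**
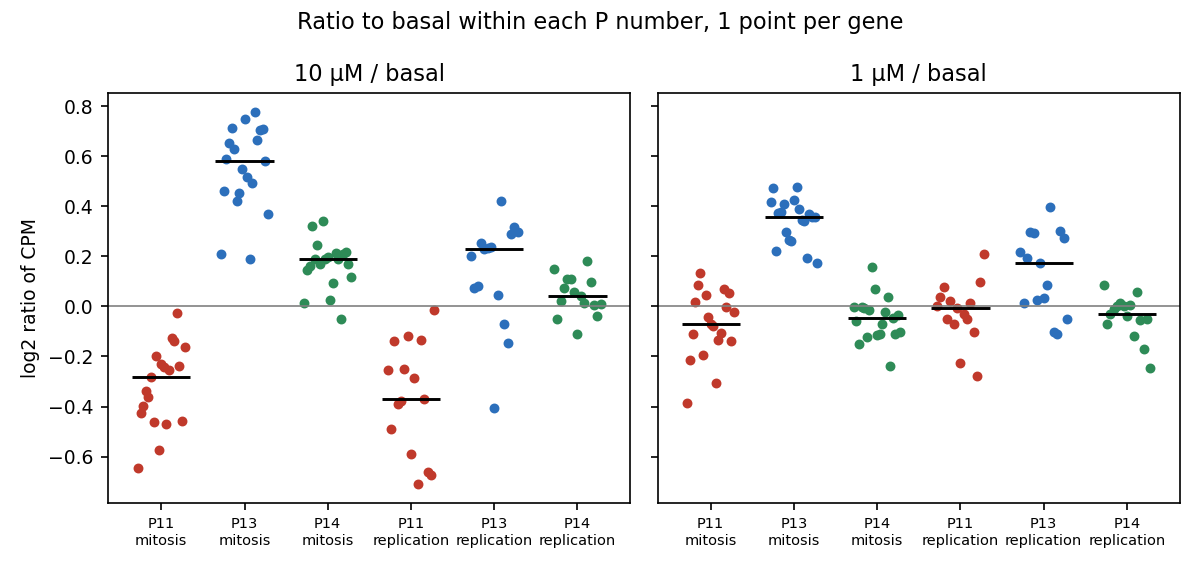
Log2 ratio of CPM to the basal library of the same P number at 10 µM (left) and 1 µM (right), with 1 point per gene and a bar at the median, for 19 mitotic and 15 replication genes. At 10 µM the mitotic medians are -0.28, 0.58 and 0.19 in P11, P13 and P14.

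Replication genes, too, were lower than basal in P11 at 10 µM. All 15 were lower there, with a median log2 ratio of -0.37 and a range from -0.71 for Rrm2 to -0.015 for Gins2. In P13 12 of 15 were higher (median 0.23) and in P14 12 of 15 (median 0.040). Cdt1 went from 12.9 to 8.08 CPM in P11, from 10.2 to 12.6 CPM in P13 and from 13 to 12.7 CPM in P14. At 1 µM the replication medians were near zero in P11 (-0.0070) and P14 (-0.030) and 0.17 in P13.

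In the wider list the directions were alike. Of its 80 mitotic genes 74 were lower than basal at 10 µM in P11 (median -0.33), 78 were higher in P13 (0.45) and 73 were higher in P14 (0.13). In the blocked fit at 10 µM against basal, 2 of the 190 wider genes passed, a smaller share than the 3.96% of all genes, so the count does not set this list apart. At 1 µM 0 passed. Cdkn1a, a p53-responsive CDK inhibitor, was lower, and Fen1, the flap endonuclease of lagging-strand synthesis, was higher.

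Cdkn1a had 101, 79.5 and 81.7 CPM in basal P11, P13 and P14, 103, 96.0 and 81.4 CPM at 1 µM, and 76.7, 56.0 and 57.8 CPM at 10 µM. The 10 µM libraries all lay below the 6 others. The log2 fold change was -0.47 ± 0.070 against basal (edgeR with the block, adjusted p = 0.0185) and -0.57 ± 0.069 against 1 µM (adjusted p = 0.0141). Against basal the call was lost without basal P11 (adjusted p = 0.0770), basal P13 (0.0806), basal P14 (0.0801) or, at 10 µM, P13 (0.0501) or P14 (0.0678). Against 1 µM it was lost without 1 µM P11 (0.0577), 1 µM P14 (0.0651) or 10 µM P14 (0.0690). Both calls were also lost without the block, with the third group out of the fit and without all P14 libraries, and the call against basal without all P11 libraries.

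Fen1 had 71.2, 58.6 and 61.0 CPM at basal and 82.0, 77.2 and 69.6 CPM at 10 µM, higher within each P number. Its log2 fold change was 0.27 ± 0.055 against basal and 0.26 ± 0.055 against 1 µM (edgeR with the block, adjusted p = 0.0391 for each). The call against basal remained in 1 of 9 runs with a library left out (without 1 µM P13, adjusted p = 0.0486) and reached an adjusted p of 0.181 without basal P13. Against 1 µM it remained in 0 of 9, with adjusted p values of 0.0530 to 0.148. Both calls were also lost without the block, with the third group out of the fit, without all libraries of any 1 P number, under library totals and with limma on TPM values.

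Cell type markers also differed between doses in the blocked fit. There 1.32% of all genes were higher and 2.64% lower at 10 µM against basal. Without the block 0 of 15321 genes passed, and so none of these markers. With the block 0 genes passed when the groups were compared alone or all P14 libraries were left out. In the blocked fit at 10 µM against basal, 6 of 8 mature oligodendrocyte markers were higher (median 0.34), and their sum was 44300 to 54300 CPM at basal and 62200 to 71000 CPM at 10 µM. Microglial markers were lower in 2 of 12 (median -0.19), astrocytic in 2 of 9, endothelial in 1 of 5 and neuronal in 4 of 9. Mural and fibroblast markers passed in 0 of 7, although their sums went from 1490, 594 and 217 CPM at basal to 1140, 386 and 172 CPM at 10 µM. OPC markers passed in 0 of 6 (median -0.17). The part of these cell types in the values of Ccnd2 and Cdkn1a was not tested.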

How the data were processed

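RNA was extracted with RNeasy and made into libraries with the Illumina Stranded mRNA Prep kit, per the labels' protocols. The submitters' processing notes list the build rn6 and the tools DRAGEN, Trimmomatic, Picard and FastQC. The program that counted reads, its strand setting and the gene annotation were not given in the sources used here. A protocol text gives another unit for the lower dose than the treatment label, whose 1 µM was used. The authors deposited expected counts (estimated reads per gene, not scaled between libraries), 92.7% of them whole numbers, and TPM values.

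Counts were rounded and tested in R 4.3.3 with edgeR 4.0.16 (quasi-likelihood F test, TMM, filterByExpr with a count minimum of 10 and a total minimum of 15), which kept 15321 genes. All 9 libraries entered 1 fit with a coefficient per group, and an adjusted p (Benjamini-Hochberg) under 0.05 was called. The contrast between P numbers and the blocked fit held group and P number. SEs of fitted differences were taken as the log2 fold change divided by the root of F. CPM are reads over the TMM-scaled library size, ratios within a P number used CPM, and 399 IDs without a gene name (at most 0.0111% of reads) stayed in the table. At these depths a count of 0 allows up to 0.128 CPM (3 reads, counting error only).

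The P number comes from the titles. All 9 same-number correlations of deviations from group means passed 0.1 (0.319 to 0.772), while the 18 others were -0.708 to 0.193. Libraries of a group all differed by more than counting noise, with a chi-square per degree of freedom of at least 23.3. The members, the wider list, the markers and the tests were chosen with earlier results of these data known. By the rule for named genes all 40 members could be named, each by its levels, and the 38 found have levels. Of the wider list at most 6 genes per contrast are named, those with the smallest p among genes past the threshold in the blocked fit. Where a symbol had several IDs, the ID with the most reads was used. The alternatives were DESeq2 1.42.0, limma 3.58.1 with a pseudocount of 1 or 0.1 TPM (a TPM of at least 1 in 3 libraries, or no filter), other scalings and filters, the block, the groups compared alone, and each library left out. The steps were tested on simulated data, where the blocked fit of 10 µM against basal was given genes changed by a known fold. It recovered 30% of 50 genes changed 1.25-fold, 62% of 50 changed 1.5-fold and 78% of 50 changed 2-fold. Small changes can therefore be missed. Promoters are RefSeq sequences of build GRCr8 and were not matched to the build of the counts.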

Additional observations from a re-analysis of the deposited data

Results flagged for a closer look

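The mitotic genes moved in opposite directions at 10 µM bavisant in different P numbers. Against basal, their median log2 ratio was -0.281 in P11, with all 19 genes lower, and 0.582 in P13, with all 19 higher. Against 1 µM, the median was -0.244 in P11, with all 19 lower, and 0.202 in P14, with all 19 higher. The difference between the P numbers was not tested, since each dose and number had 1 library. The summed CPM of mural and fibroblast markers also differed between the numbers and was highest in P11, although the marker Tagln was highest in P14 at each dose. Library depth differed as well (23.9 to 39.2 M reads in P11 and 29.8 to 43.1 M elsewhere). The part of the markers or of depth in the pattern was not tested.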

How the results depend on the processing

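At 10 µM against basal the count of cell cycle genes called was 0 without the replicate block. It was 1 with the block, with DESeq2 with or without the block, and with the block under limma on log2(TPM + 1), DESeq2 size factors, library totals, a mean of at least 100 reads, no count filter or all P13 libraries left out. With the block it was 0 for the groups compared alone and without all P11 or all P14 libraries. At 10 µM against 1 µM it was 0 without the block, 1 with DESeq2 without the block, and 2 with the block, and also 2 with the block under DESeq2, limma, both other scalings and both other filters. With the block it was 0 there for the groups compared alone and without all P11, all P13 or all P14 libraries. Leaving out 1 library gave 0 to 1 against basal and 0 to 2 against 1 µM with the block, and 0 without it. The cause of these shifts was not tested, beside a common dispersion of 0.0675 without and 0.00696 with the block. At 1 µM against basal every setting gave 0 cell cycle genes, with at most 8 genes called in all. Over all genes, the blocked count of 607 against basal was 964 with DESeq2, 0 for the groups compared alone, and 10, 63 and 0 without all P11, P13 or P14 libraries. The blocked count of 659 against 1 µM became 987, 0, 110, 20 and 0 under the same settings. Leaving out all P13 or all P14 libraries was chosen after seeing the data. For P11 against the other numbers, the 25 calls became 25 to 26 under other settings and 22 to 26 without 1 library. Over all genes the 7751 calls of this contrast became 6669 to 7785 and 6053 to 8055. The mitotic median stayed between -1.17 and -0.84 there, while at 10 µM against basal it ran from -0.033 to 0.52. Depth limits little: the lowest member count in a library was 103 reads.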
